A study of Mus musculus with 1203 samples.

Results

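This account covers 40 genes of DNA replication and mitosis, measured in single cells sorted from the mouse colon, and asks which cells carried their transcripts together. They were the rows of the deposited expression table whose gene symbol was on a list of 17 replication genes, 21 mitosis genes and 2 microtubule genes, and all 40 were found among the 46517 mouse genes of the table. The cells came from female mice aged 11 weeks and were of 2 genotypes. The first was labelled VillinCre;IPMKf/f, in which Cre recombinase under the Villin promoter, active in intestinal epithelium, acts on floxed alleles of Ipmk, the gene for inositol polyphosphate multikinase. These cells are called conditional knockout here, by their label. The second was labelled wt, wild type. Each well of a plate held 1 sorted cell, labelled tuft or epithelial. Tuft cells are chemosensory cells of the gut lining. They were sorted alive by antibodies to the epithelial adhesion molecule EpCAM and to Siglec-F, and how the epithelial wells were gated was not stated.

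A cell that divides first licenses its replication origins, copies its DNA and then separates the copies on a spindle, and the genes for each step are transcribed in waves. E2F transcription factors drive the genes of origin licensing, the replicative helicase and nucleotide supply. A later wave, which includes mitotic cyclins, spindle checkpoint proteins and motors, acts through promoter elements named CCAAT and the cell cycle genes homology region, CHR. In the colon, division takes place in the lower crypt among stem and progenitor cells, while mature tuft cells are regarded as cells that have left the cycle.

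Of 1203 wells, 856 had at least 1000 genes above 0 TPM, a transcript level scaled to the same total in every cell, and were kept. In the tuft gate 766 cells were kept. Of these, 300 were conditional knockout cells, of which 25%, 35.3%, 32% and 7.67% lay in plate sets 2, 4, 5 and 7. The other 60.8% were wild type cells, of which 18.2%, 23.4% and 58.4% lay in plate sets 1, 3 and 6. In the epithelial gate 51 conditional knockout and 39 wild type cells were kept. No plate set held both genotypes, so plate set and genotype cannot be told apart. No label names an animal. Each genotype therefore counts as 1 sample, no p-value is given, and each SD measures the spread of plate sets, part of which may be technical. Read depth cannot be had from TPM, so genes detected are given in its place. Their median per tuft-gate cell was 2315 ± 459.7 in conditional knockout plate sets (SD, n = 4) and 2679 ± 201.6 in wild type plate sets (SD, n = 3). The ribosomal RNA entry Rn18s-rs5 held 76.4% of all TPM, which pushes other genes to low values. Ipmk itself averaged 6.90, 18.8, 9.63 and 7.57 TPM in the tuft gate of the conditional knockout plate sets 2, 4, 5 and 7, against 3.22, 4.31 and 3.31 TPM in those labelled wt. It was thus higher under the conditional knockout label, at a mean of 10.7 against 3.61 TPM, without overlap of plate sets. The reason was not tested, and a whole-transcript TPM does not read the deleted part alone. Directions below are those of the labels.

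The promoters of 4 members are shown because these genes, Mcm6, Mcm7, Cdc20 and Plk1, were the members that met a rule of size in the comparisons of cell classes or genotypes given below, and because they hold examples of elements whose frequency differed between the roles. Each window runs 5′ to 3′ on the strand of the gene, from 250 bases before the gene start to 50 after it, as given by RefSeq on GRCm38.p6. Capitals mark the motifs searched on both strands, of which some overlap.
Mcm6, chr1:128359656-128359955, minus strand: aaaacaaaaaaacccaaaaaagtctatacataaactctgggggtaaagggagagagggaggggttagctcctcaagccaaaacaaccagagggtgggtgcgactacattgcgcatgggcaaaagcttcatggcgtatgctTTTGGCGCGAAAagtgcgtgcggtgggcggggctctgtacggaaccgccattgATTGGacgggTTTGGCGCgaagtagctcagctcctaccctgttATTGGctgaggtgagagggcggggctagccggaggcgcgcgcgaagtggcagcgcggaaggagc
Mcm7, chr5:138171834-138172133, minus strand: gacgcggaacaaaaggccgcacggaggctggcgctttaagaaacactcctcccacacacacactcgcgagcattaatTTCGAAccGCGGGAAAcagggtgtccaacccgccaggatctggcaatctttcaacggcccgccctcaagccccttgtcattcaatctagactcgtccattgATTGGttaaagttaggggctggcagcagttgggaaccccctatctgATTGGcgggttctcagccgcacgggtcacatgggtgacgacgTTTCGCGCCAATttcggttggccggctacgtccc
Cdc20, chr4:118437294-118437593, minus strand: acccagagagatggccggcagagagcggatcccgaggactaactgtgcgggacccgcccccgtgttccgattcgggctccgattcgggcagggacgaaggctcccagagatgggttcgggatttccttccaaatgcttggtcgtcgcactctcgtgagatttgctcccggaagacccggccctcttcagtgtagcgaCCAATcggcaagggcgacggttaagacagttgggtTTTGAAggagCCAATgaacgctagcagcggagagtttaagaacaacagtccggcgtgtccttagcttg
Plk1, chr7:122159185-122159484, plus strand: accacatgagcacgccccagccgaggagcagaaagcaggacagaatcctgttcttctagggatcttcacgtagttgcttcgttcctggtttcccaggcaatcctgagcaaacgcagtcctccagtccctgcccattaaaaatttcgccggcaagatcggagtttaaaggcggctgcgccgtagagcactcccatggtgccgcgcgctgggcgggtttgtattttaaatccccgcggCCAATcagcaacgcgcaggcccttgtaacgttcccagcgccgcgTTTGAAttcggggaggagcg

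The E2F motif was searched as TTTCCCGC, TTTGGCGC, TTTCGCGC and TTTGCCGC, the CHR as TTTGAA and TTCGAA, and the third element as CCAAT. Promoter windows were at hand for 32 of the 40 members. An E2F motif lay in 6 of 14 replication promoters (Cdc6, Cdt1, Mcm3, Mcm5, Mcm6 and Mcm7), or 42.9%, and in 1 of 17 mitosis promoters (Cdk1), against 2.26% of all 32851 promoters. A CHR lay in 14 of 17 mitosis promoters, or 82.4%, and in 3 of 14 replication promoters, against 19.2% of all promoters. CCAAT was common in both groups, with 16 of 17 mitosis and 9 of 14 replication promoters, against 37.4% of all. These matches describe letters in the windows and are not evidence of binding in these cells.

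Most cells carried few member transcripts and a small group carried many at once. Of the 856 kept cells, 17.3% had no member above 0, 61.6% had 1 to 4 of the 40, 95 cells had 5 to 9, 55 had 10 to 19 and 31 had 20 or more, up to 39 in a single cell. A cell with 10 or more members is used below as the measure of a cell with a broad replication and mitosis programme. In the tuft gate 69 of 766 cells reached it, or 9.01% (exact binomial 95% interval 7.08% to 11.3%, which covers counting error only). In the tuft gate 11 cells had 9 members and 4 had 10, so the boundary runs through a thin part of the distribution. The number of members went with the number of genes detected, with a Spearman coefficient across the 766 tuft-gate cells of 0.62, a description over cells that share plates and detection depth. Cells with 10 or more members had a median of 4189 genes, against 2488 in the other tuft-gate cells.

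**Figure D1:**
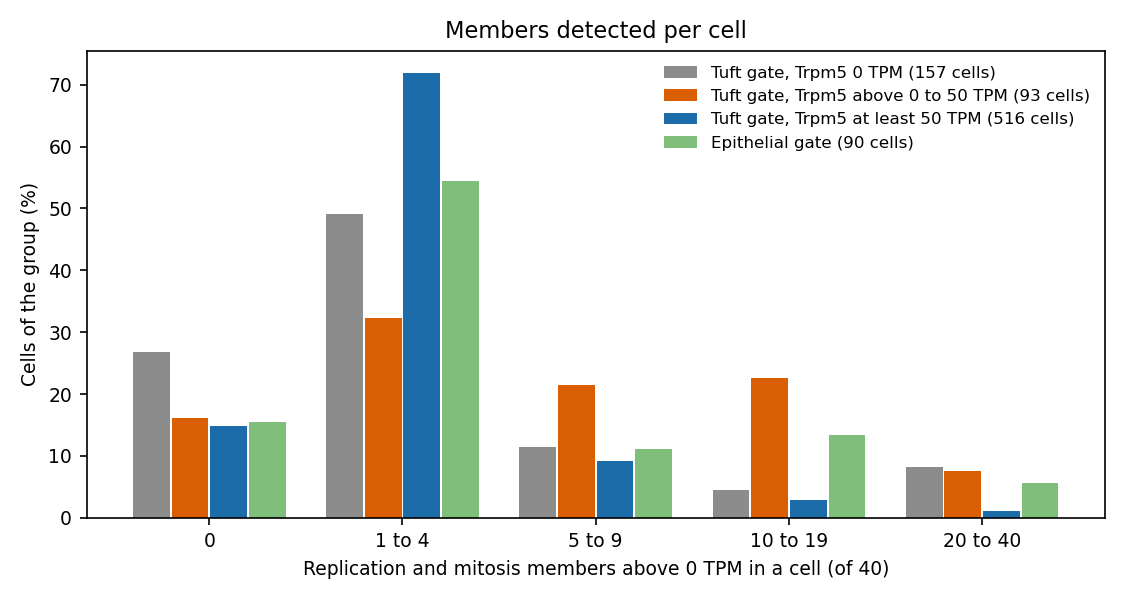
Share of cells (y axis, percent of the group) by the number of the 40 members above 0 TPM in the cell (x axis, in 5 classes), for 3 Trpm5 classes of the tuft gate and for the epithelial gate. Cells with Trpm5 above 0 to 50 TPM have the tallest bar at 10 to 19 members, and cells with at least 50 TPM gather at 1 to 4.

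The replication members were detected more widely than the mitosis members. A replication member was above 0 in a median of 9.92% of tuft-gate cells (range 2.22% to 34.2%) and a mitosis member in 4.57% (2.35% to 18.8%). Tubb5, a beta tubulin, was above 0 in 55.5% of tuft-gate cells, Gins2, a subunit of the replicative helicase complex, in 34.2%, Pcna, the sliding clamp of DNA polymerase, in 28.1%, Cenpa, the centromeric histone H3 variant, in 18.8%, Mcm7, a subunit of the ring-shaped helicase, in 16.6%, and Stmn1, which destabilises microtubules, in 15.9%. The least often detected were the cyclin E genes Ccne1 and Ccne2, which drive entry into replication, each in 2.22%, and Bub1, a spindle checkpoint kinase, in 2.35%.

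Some of these genes marked the same cells and some did not. To see this without counting a gene against itself, each member was read in cells with at least 10 of the other 39 members above 0 and in the remaining tuft-gate cells. Mcm7 was above 0 in 83.6% of the cells with at least 10 others, against 10.2% of the remaining cells. Mcm6, another subunit of that ring, was at 73.5% against 8.17%, and Mcm3 at 70.1% against 2.15%. Among mitosis members, Mki67, which coats mitotic chromosomes, was at 59.1% against 2.86%, Ccna2, cyclin A, at 57.97% against 1.29%, Cdk1, the kinase of mitotic entry, at 53.7% against 2.15%, and Ccnb2, a cyclin B, at 52.2% against 1.29%. Bub1 was nearly absent outside such cells, at 24.6% against 0.14%. Gins2 (58.8% against 31.8%), Pcna (67.2% against 24.3%), Cenpa (42.03% against 16.5%) and Tubb5 (93.8% against 51.9%) were also common in cells with few other members. In cells with at most 1 other member, Gins2 was still above 0 in 27.7%, Pcna in 16.8% and Cenpa in 14.0%, while 7 members were at 0 in all of them: Ccne1, Ccnb2, Bub1, Birc5, a subunit of the chromosomal passenger complex, Aurkb, its kinase, Kif11, a spindle motor, and Tpx2, a spindle assembly factor.

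Replication and mitosis members overlapped in part of the cells. Counting a cell as replication-high or mitosis-high from 5 members of that role, 74 tuft-gate cells were replication-high and 50 mitosis-high. Of these, 42 were high for replication alone, 32 for both and 18 for mitosis alone, so 43.2% of the replication-high cells (exact interval 31.8% to 55.3%) and 64% of the mitosis-high cells were high for both. In the epithelial gate 12 cells were high for replication alone, 3 for both and 4 for mitosis alone. Over both gates 35 of 89 replication-high cells, or 39.3%, were also mitosis-high (29.1% to 50.3%), and among cells with 2000 to 4000 genes the share was 25.9%. Near the boundary, 26 tuft-gate cells had 4 replication members and 11 had 5, and 7 had 4 mitosis members and 7 had 5. Pairs of members within a role moved together more than pairs across roles: the median Spearman coefficient across the 766 tuft-gate cells was 0.36 over all replication pairs, 0.49 over all mitosis pairs and 0.28 over all mixed pairs, a description over cells that share libraries and differ in genes detected.

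**Figure D2:**
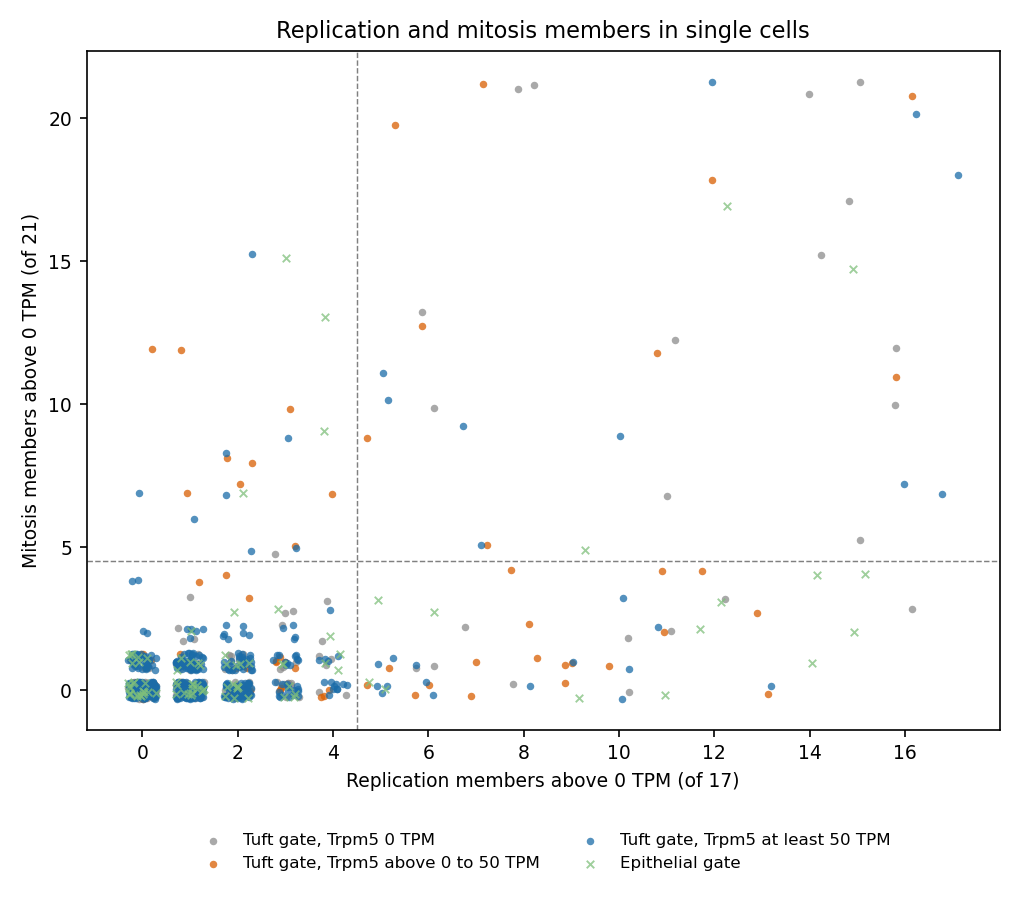
Each point is a kept cell, placed by its number of replication members above 0 TPM (x axis, of 17) and of mitosis members above 0 (y axis, of 21), with a small seeded shift so that points do not hide each other. Dashed lines mark the boundary of 5 members, with 42 tuft-gate cells high for replication alone, 32 for both and 18 for mitosis alone.

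Most cell cycle genes outside the 40 members were also detected more often in these cell groups. Of 71 such genes, 64 were above 0 in a larger share of the 42 replication-only cells than of the 674 tuft-gate cells low for both roles, 69 in a larger share of the 32 cells high for both, and 51 in a larger share of the 18 mitosis-only cells. Over all 13961 genes above 0 in at least 10 tuft-gate cells the same was true of 74.2%, 75.6% and 45.9%, and of the list's 70 such genes of 91.4%, 97.1% and 72.9%. The median number of genes above 0 was 3984.5, 4505.5 and 2883.5 in these cell groups, against 2475 in cells low for both, and its part was not tested. A few genes are named here, chosen after their values were seen. Chaf1b, a subunit of the chromatin assembly factor that follows the replication fork, was above 0 in 50.0% of replication-only cells, 53.1% of cells high for both and 5.56% of mitosis-only cells. Slbp, which binds the end of histone transcripts, was at 59.5%, 87.5% and 16.7%, Rfc3, of the clamp loader, at 42.9%, 59.4% and 5.56%, and Prim1, the primase, at 33.3%, 46.9% and 0%. In the other direction ran Ncapd2, a condensin subunit, at 30.95% of replication-only, 84.4% of both-high and 72.2% of mitosis-only cells, Cdca8, of the chromosomal passenger complex, at 4.76%, 75% and 33.3%, and Racgap1, which acts in cytokinesis, at 9.52%, 71.9% and 33.3%. Cdkn1a, an inhibitor of cyclin-dependent kinases, was the reverse of most of the list, at 30.95%, 46.9% and 33.3% of the same cells, against 68.99% of cells low for both roles. The 18 mitosis-only cells are few, and a count of 0 among them allows a share of up to 16.7% (3 of 18 cells).

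The tuft-gate cells were also divided by their level of Trpm5, a tuft cell marker and the cation channel of the taste-signalling chain. Trpm5 was at 0 TPM in 20.5% of them, above 0 and under 50 TPM in 93 cells or 12.1%, and at least 50 TPM in 67.4%. In the class at 0, 20 cells had 10 or more members, or 12.7% (exact interval 7.96% to 18.99%). In the intermediate class 28 did, or 30.1% (21.03% to 40.5%). In the class of at least 50 TPM 21 did, or 4.07% (2.54% to 6.15%). Pooled over plate sets the intermediate class was the highest at 10 or more members, with 27 of 93 cells replication-high and 18 mitosis-high. The class with the most Trpm5 was the lowest, with 25 and 18 cells. At 20 or more members the class at 0 (13 cells, or 8.28%) and the intermediate class (7 cells, or 7.53%) were close. The class of at least 50 TPM had 1.16%. Of the replication-high cells, 59.1% were also mitosis-high at Trpm5 0 (exact interval 36.4% to 79.3%). In the intermediate class 33.3% were (16.5% to 53.96%). Across single tuft-gate cells the count of members and Trpm5 had a Spearman coefficient of -0.07 (766 cells), a single value that does not show the peak in the middle.

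The order at 10 or more members held within most plate sets. Between the intermediate class and the class of at least 50 TPM, the share with 10 or more members differed by 28.98 percentage points on average over the 6 plate sets with at least 5 cells of each (SD 15.3), and was higher in the intermediate class in 6 of 6, by 8.73 to 55.4 points. The intermediate shares rest on few cells, 6 to 43 a plate set. This contrast was chosen after its values were seen. It was 5.27 points where a member counted from 10 TPM, 7.62 points for 15 members and 45.1 points for 5. Against the class at 0, the share in the intermediate class was 20.5 points higher on average over the 6 plate sets (SD 17.2), above in 5 and below in plate set 4. Between the class of at least 50 TPM and the class at 0, the difference averaged -7.26 points over 7 plate sets (SD 6.35), with 5 below 0, 1 above and 1 at 0. The intermediate class was also the highest in each band of genes detected. Among cells with 1000 to under 2000 genes the shares were 0% of 55 cells at Trpm5 0 (exact interval up to 6.49%), 18.4% of 38 intermediate cells and 0.66% of cells at 50 TPM or more. With 2000 to under 4000 genes they were 12%, 28.1% and 1.77%, and with 4000 genes or more 26.9%, 52.2% and 18.1%.

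**Figure D3:**
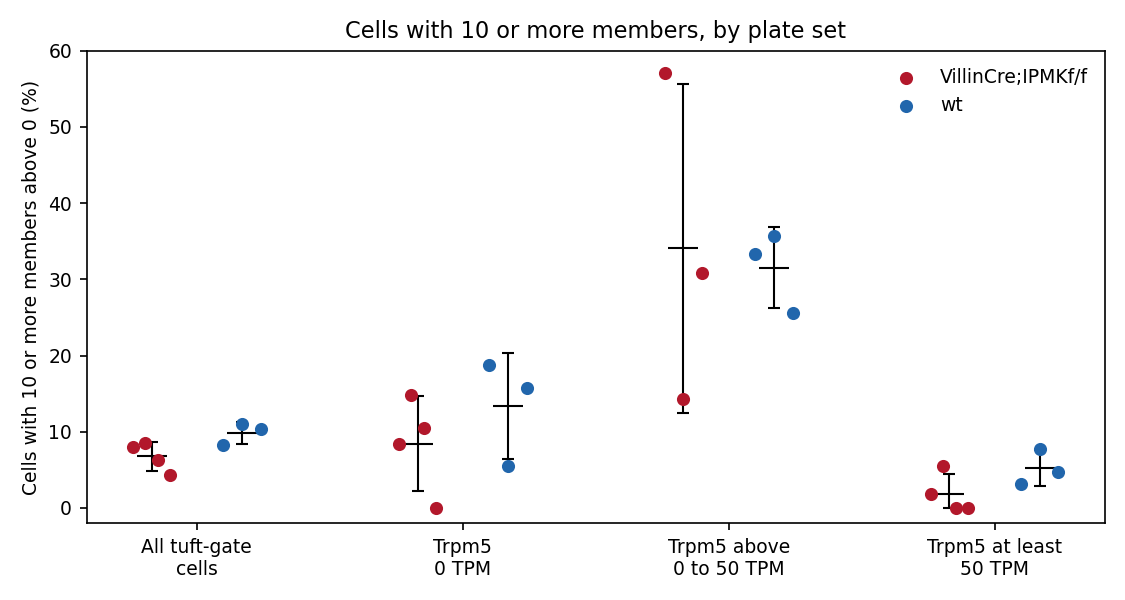
Share of tuft-gate cells with 10 or more members above 0 TPM (y axis, percent) in each plate set with at least 5 cells, for all tuft-gate cells and for 3 Trpm5 classes, conditional knockout on the left and wild type on the right of each pair. Points are plate sets, the horizontal mark is their mean and the bar 1 SD, cut at 0. The intermediate class lies between 14.3% and 57.1%, and the class of at least 50 TPM at or below 7.79%.

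Member by member, the intermediate class led for most genes of both roles. In order of rising Trpm5, a replication member was above 0 in a median of 14.0%, 23.7% and 6.01% of cells, and a mitosis member in 7.64%, 14.0% and 2.52%. The class of at least 50 TPM was below the intermediate class for 15 of 17 replication members (all but Gins2 and Ccne2) and 20 of 21 mitosis members (all but Cenpa), and below the class at 0 for 16 of 17 and 20 of 21, with the exceptions Gins2 and Cenpa. Mcm6 was above 0 in 18.5%, 34.4% and 8.91% of cells, Tyms, which makes thymidylate, in 21.7%, 30.1% and 10.1%, Mki67 in 11.5%, 22.6% and 3.88%, and Ccna2 in 8.92%, 21.5% and 2.91%. Aurka, a spindle pole kinase, was at 7.01%, 14.0% and 0.97%. Cenpa ran the other way, in 7.64%, 15.1% and 22.9% of cells, and Gins2 was at 29.9%, 25.8% and 37.02%. Rrm2, the regulatory subunit of ribonucleotide reductase, was highest at Trpm5 0, with 11.5%, 6.45% and 1.94%.

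**Figure D4:**
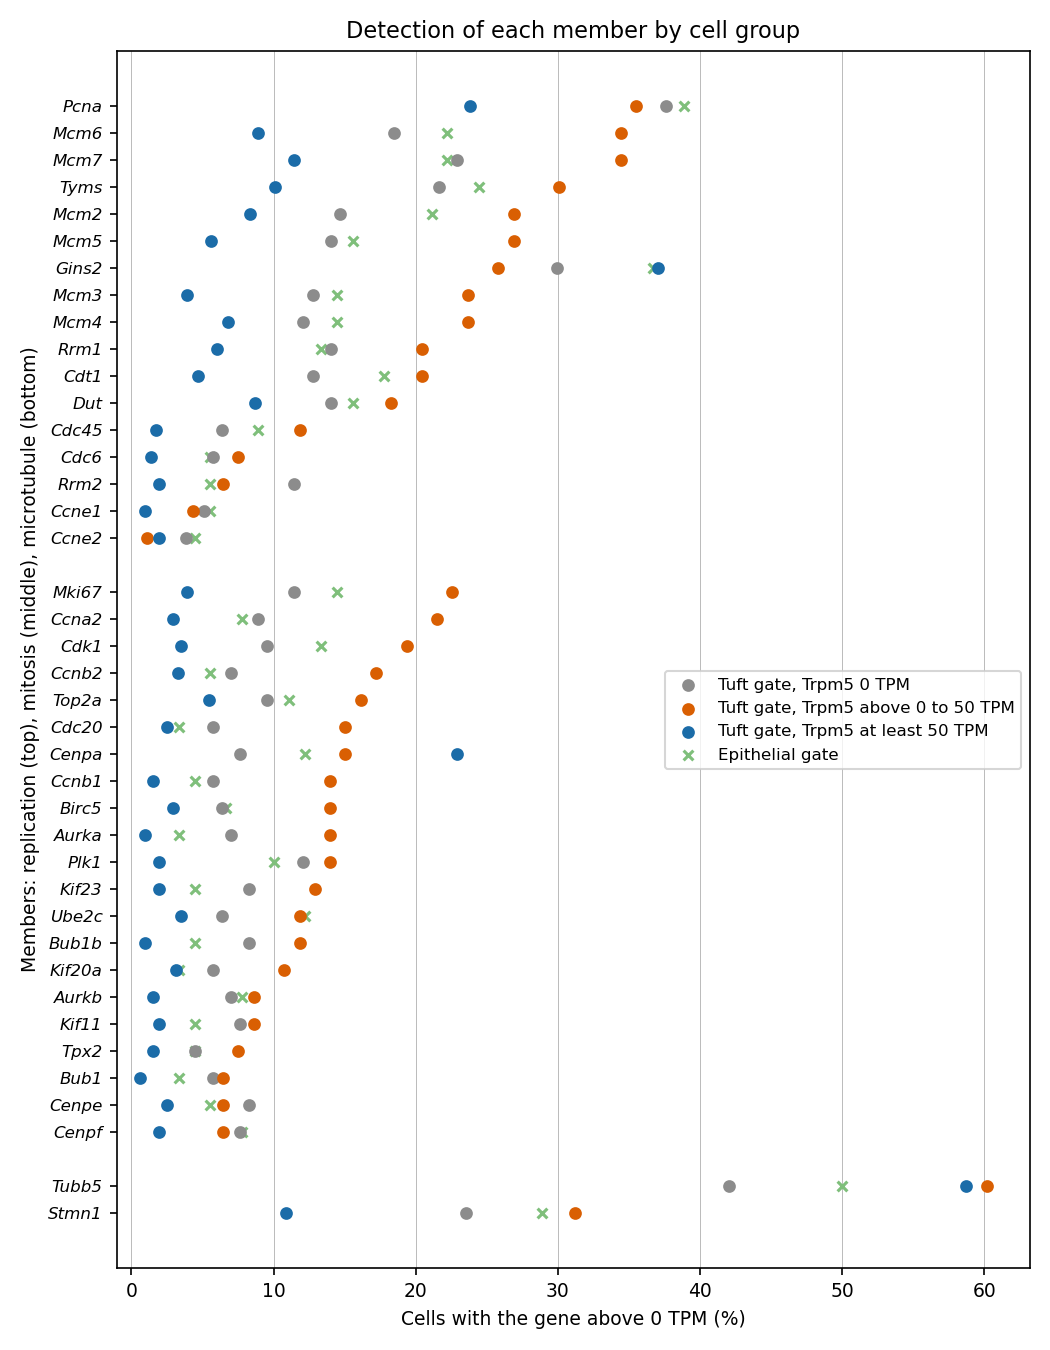
Share of cells with each of the 40 members above 0 TPM (x axis, percent), for 3 Trpm5 classes of the tuft gate (points) and for the epithelial gate (crosses), with replication members above, mitosis members in the middle and microtubule members at the bottom, each ordered by the intermediate class. The class of at least 50 TPM is leftmost for most members, and Cenpa, Gins2, Ccne2 and Tubb5 are the exceptions.

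By mean level, most members were also higher in the intermediate class than in the class of at least 50 TPM, with wide spread. Between the intermediate class and the class at 0, mean levels were mixed. Averaged over 7 plate sets at Trpm5 0 and 6 of the intermediate class, some members, such as Pcna and Rrm2, were higher at Trpm5 0. Others, such as Mcm7 and Tyms, were higher in the intermediate class. Pcna, Mcm7 and Tyms each changed sides between plate sets. Tyms was at 155.3 TPM in the intermediate class against 6.47 TPM at 0 in plate set 2, and at 19.7 against 88.7 TPM in plate set 4. Levels of that pair of classes were not tested. A gene was counted as called between classes when its mean TPM was at least 2 over the plate sets, its difference in log2(mean TPM + 1) was at least 2-fold and its sign was the same in every plate set. Between the intermediate class and the class of at least 50 TPM, the median log2 difference over all 40 members was 0.63, with 36 above 0 and 4 below, and it was -0.10 over all 22480 genes detected. Only 16 members passed the level filter, 8 of them with the lower class under 2 TPM, so that they entered through the class where they were high. The median of the 16 was 1.24 (SD between 6 plate sets 1.02), while that of all 6195 genes tested was -0.63. Of the 16, 3 were called higher, Mcm7, Cdc20 and Plk1, of which Cdc20 and Plk1 passed the filter through the intermediate class alone, against a background of 3.47% of genes called higher, and 0 members were called lower, against 21.9%. Mcm7 averaged 5.41, 7.68, 7.36, 8.17, 4.29 and 7.06 TPM in the intermediate class of plate sets 1 to 6, against 2.72, 0.28, 3.47, 1.97, 2.73 and 2.34 TPM in cells of at least 50 TPM, a log2 difference of 1.31. The intermediate values lay above those of the other class without overlap. Cdc20, the activator of the anaphase-promoting complex, averaged 2.92, 21.4, 6.71, 2.54, 0.85 and 6.49 TPM, against 0.19, 0, 1.53, 0.98, 0 and 0.79 TPM (log2 difference 1.93). Plk1, a kinase of mitotic entry and exit, averaged 2.21, 8.41, 3.12, 3.81, 2.53 and 2.30 TPM, against 0.33, 0.05, 0.82, 0, 0 and 0.42 TPM (1.82). The levels of Cdc20 overlapped between the classes across plate sets but not within any of them, and those of Plk1 did not overlap. Cenpa was lower in the intermediate class in 5 of 6 plate sets, with a log2 difference of -0.66, and did not meet the rule. The median member difference was -0.03 in plate set 4 and between 0.26 and 2.87 in the other 5. Without plate set 1 the count called higher was 6 and without plate set 4 it was 5. On TPM rescaled without the most abundant transcripts the median was 2.11 and that of all genes -0.84, and Tubb5 changed sign. Of 35 members tested on that scale 9 were called higher, and the share of all genes called was not taken.

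Between the class of at least 50 TPM and the class at 0, the median log2 difference over all 40 members was -0.55, with 37 below 0 and 3 above, and it was 0.0080 over all genes detected. The 13 members that passed the filter, 6 of them with the lower class under 2 TPM, had a median of -0.89 (SD 0.99, 7 plate sets), while that of all 7121 genes tested was -0.09. Mcm6 and Mcm7 were called lower, against a background of 11.4% of genes called lower, and 0 members were called higher, against 7.19%. Both passed the filter through the class at 0 alone, as they averaged 1.11 and 1.93 TPM in cells of at least 50 TPM. A share of 2 in 13 is near that background, and without plate set 4, or without plate set 6, 0 members were called lower. Mcm6 averaged 1.41, 0.44, 2.95, 1.33, 0.32, 1.08 and 0.22 TPM in cells of at least 50 TPM of plate sets 1 to 7, against 1.97, 1.65, 3.03, 4.13, 1.20, 4.36 and 6.8 TPM in cells at 0 (log2 difference -1.02). In plate set 3 the values were nearly level. Mcm7 averaged 2.72, 0.28, 3.47, 1.97, 2.73, 2.34 and 0 TPM against 8.63, 3.03, 4.17, 7.14, 3.36, 9.05 and 0.83 TPM (-1.05). Tyms, at 1.54, 1.26, 13.1, 7.15, 1.56, 5.52 and 0.19 TPM against 32.6, 6.47, 2.07, 88.7, 14.3, 26.4 and 2.66 TPM, was lower in 6 of 7 plate sets and higher in plate set 3. Plate set 3 was the exception for other members too: its median member difference was 1.16, while it lay between -1.66 and -0.74 in plate sets 1, 2, 4, 5 and 6 and was 0 in plate set 7. Both contrasts share the cells of at least 50 TPM. On the rescaled values the median of all genes moved to 0.55 and that of the members was -0.97. Of 33 members tested there 0 were called, and the share of all genes called was not taken. Dut, Gins2, Mcm2, Ccnb2 and Tubb5 changed sign in this contrast.

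In every Trpm5 class most stem or progenitor markers were detected in a larger share of the cells with many members, which also had more genes detected, and the part of that was not tested. These were 13 of 14 markers at Trpm5 0, 13 in the intermediate class and 12 at 50 TPM or more. Olfm4, also on the list, was at 0 in all kept cells. The median number of genes above 0 was 4539.5, 3553.5 and 4506 in the cells with many members of these classes. In the others it was 2459, 2026 and 2552. The same share over all genes was not taken, so these counts cannot set the markers apart from other genes. Trpm5 is itself 1 of the 24 core tuft genes, so their counts differ between the classes in part by construction. Among cells at Trpm5 0, the 20 with 10 or more members had a median of 0 of 24 core tuft genes above 0, and 7.5 of 14 stem or progenitor genes, against 1 in the others. Smoc2, a stem cell matrix protein, was above 0 in 50.0% of these 20, against 2.92% of the others, and Ascl2, a stem cell transcription factor, in 40.0% against 0%. In the intermediate class the 28 cells with 10 or more members had a median of 10 of 24 core tuft genes, against 9 in the other 65, and 5.5 stem or progenitor genes, against 2. Dclk1, a kinase that marks tuft cells, was above 0 in 96.4% of the 28, and Avil, an actin-binding protein of these cells, in 71.4%. Pou2f3, the transcription factor that specifies tuft cells, was in 25% of the 28 and 27.7% of the 65.

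Among cells of at least 50 TPM, the 21 with 10 or more members had a median of 16 of 24 core tuft genes, against 20 in the others, with a median summed level of 685 against 2075 TPM. Slc12a2, an ion cotransporter of crypt base cells, was above 0 in 85.7% of the 21, against 18.2% of the others. Cdca7, a chromatin factor of dividing cells, was at 66.7% against 5.25%. Ascl2 was nearly level, at 9.52% against 9.29%, and Sox9, a crypt transcription factor, ran the other way, at 85.7% against 96.2%. The summed level of the 14 stem or progenitor genes had a median of 86.1 against 77.1 TPM. The tuft genes Ly6g6f (23.8% against 66.3%) and Il25, the tuft cell cytokine (4.76% against 23.8%), were less often detected in the 21. The 21 had a median of 4506 genes, against 2552. Markers of lymphocytes were at 0 in 68 of the 69 tuft-gate cells with 10 or more members and in 688 of the other 697. Those of macrophages, eosinophils or dendritic cells were at 0 in 55 of the 69 and in 627 of the 697. They were thus above 0 in a larger share of the 69, and the part of genes detected in this was not tested. Goblet cell markers were above 0 in 55 of the 69, at a median summed level of 36.3 TPM, against a median of 0 in the other tuft-gate cells, and their part was not tested. No doublet caller was run, so a well that received more than 1 cell is not told apart from a cell with both sets of transcripts.

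Of the cells of at least 50 TPM, 6 had 20 or more members. They were all wild type, 4 from plate set 3 and 2 from plate set 6, while 0 of the conditional knockout cells of this class reached this (which allows a share of up to 1.47% by the limit of 3 counts). The cell with the highest Trpm5, at 204.3 TPM, had 12 of 17 replication and all 21 mitosis members, 20 of 24 core tuft genes and 7695 genes above 0. The other 5 had Trpm5 of 57.2 to 74.8 TPM, close to the lower boundary of the class, 21 to 38 members and 12 to 16 core tuft genes.

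The genotype comparison asked whether the conditional knockout label goes with a change of these genes in the tuft gate. The share of cells with 10 or more members was 8.00%, 8.49%, 6.25% and 4.35% in the conditional knockout plate sets 2, 4, 5 and 7, and 8.24%, 11.0% and 10.3% in the wild type plate sets 1, 3 and 6, or 6.77% ± 1.88 (SD, n = 4) and 9.85% ± 1.44 (SD, n = 3). The difference of -3.07 points was larger than the pooled SD of 1.72, but the plate sets overlapped, with set 4 above set 1. Among cells with 2000 to 4000 genes it was -0.80 points. By class, the share was 8.42% ± 6.22 (SD, n = 4) against 13.4% ± 6.92 (SD, n = 3) at Trpm5 0, 34.1% ± 21.6 (SD, n = 3) against 31.5% ± 5.30 (SD, n = 3) in the intermediate class, and 1.84% ± 2.62 (SD, n = 4) against 5.21% ± 2.36 (SD, n = 3) at 50 TPM or more. In every class the plate sets of the genotypes overlapped.

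For single members, a gene was called between genotypes when its mean was at least 2 TPM, its difference at least 1.5-fold and its plate sets did not overlap. Over all 40 members the median log2 difference was -0.23, with 37 below 0 and 3 above, and it was -0.03 over all genes detected. The 11 members that passed the level filter had a median of -0.32 (SD 0.66), while that of all 6774 genes tested was -0.13, with 64.3% of them below 0. Pcna and Gins2, 2 of the 11, changed sign on the rescaled values. Of the 11, 1 was called lower, against a background of 2.26%, and 0 higher, against 1.55%. The called member was Mcm7, at 1.41, 3.70, 3.06 and 0.54 TPM in the conditional knockout plate sets 2, 4, 5 and 7, against 4.02, 4.08 and 4.49 TPM in wild type sets 1, 3 and 6 (log2 difference -0.84). The highest conditional knockout value was just under the lowest wild type value, and without plate set 7 the gene no longer met the rule.

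The other members overlapped between genotypes, except Aurka and Cdc45, whose means were under the level filter. The share of all genes without overlap was not taken, so the lack of overlap cannot set these members apart from other genes. Aurka was at 0.44, 0.44, 0.15 and 0 TPM in the conditional knockout plate sets, against 0.51, 0.59 and 0.76 TPM in wild type. Cdc45 was at 0.48, 0.28, 0.15 and 0 TPM against 0.54, 0.55 and 0.53 TPM. On the rescaled values Aurka, Cdc45, Kif23 and Mcm7 were called lower, of 34 members tested there. The share of all genes called on that scale was not taken. Pcna was at 5.69, 7.23, 5.99 and 6.90 TPM against 7.07, 8.34 and 7.80 TPM, with a log2 difference of -0.23 (0.18 on the rescaled values). Tyms was at 16.5, 28.8, 8.09 and 1.20 TPM against 7.31, 11.6 and 12.9 TPM, with both the highest and the lowest value in conditional knockout plate sets. Stmn1 was at 13.6, 12.97, 5.26 and 1.70 TPM against 8.07, 22.9 and 13.2 TPM (-0.93). Ube2c, the ubiquitin-conjugating enzyme of the anaphase-promoting complex, was at 3.52, 6.21, 1.28 and 0 TPM against 3.32, 4.91 and 6.28 TPM (-0.96), and Birc5 at 2.63, 3.09, 0 and 1.46 TPM against 2.92, 3.04 and 3.76 TPM (-0.78). Cdk1 was at 3.75, 3.69, 2.31 and 0.19 TPM against 0.39, 3.91 and 4.66 TPM (-0.14). Dut, which removes dUTP from the nucleotide pool, was at 2.91, 3.64, 1.60 and 0 TPM against 0.81, 4.56 and 3.06 TPM (-0.39), and Gins2 at 2.95, 2.51, 1.75 and 1.65 TPM against 1.54, 2.33 and 3.57 TPM (-0.09). Cenpa was at 10.3, 7.62, 3.45 and 1.42 TPM against 3.13, 8.58 and 8.09 TPM (-0.32), and Tubb5 at 12.7, 23.6, 13.9 and 9.87 TPM against 21.4, 18.97 and 13.6 TPM (-0.29). Mcm6, Ccna2, Ccnb2, Cdc20 and Plk1 were under 4.5 TPM in every plate set of both genotypes. Plate set 7, with 23 cells and a median of 1756 genes, gave the lowest value of Mcm7, Tyms, Stmn1, Ube2c, Cdk1, Dut, Cenpa and Tubb5. Its median member difference from the wild type mean was -1.55, against 0, 0.28 and -0.35 in plate sets 2, 4 and 5, and without it the median over the members was -0.13, while without plate set 1 it was -0.78. Among cells with 2000 to 4000 genes the median was 0.03, above 0.

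**Figure D5:**
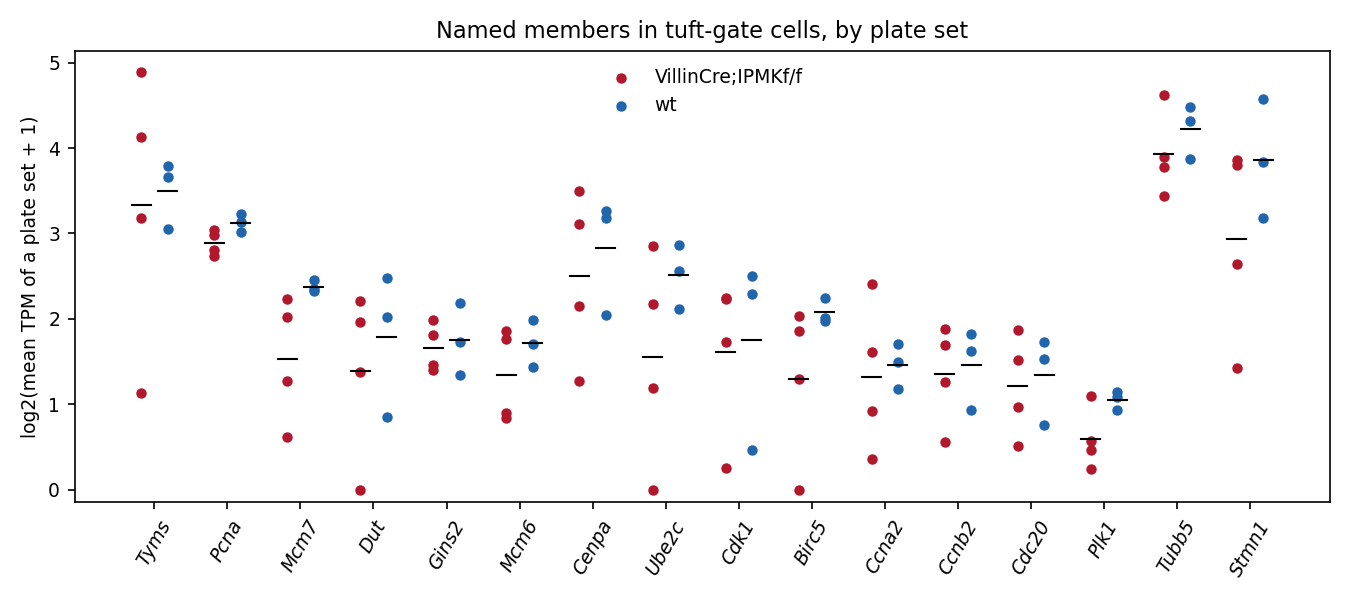
Level of 16 members in the tuft gate, as log2(mean TPM of a plate set + 1) (y axis), with the 4 conditional knockout plate sets on the left and the 3 wild type plate sets on the right of each pair. Points are plate sets and lines their means. The groups overlap for all members drawn except Mcm7, and the share of all genes without overlap was not taken.

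Among cells of at least 50 TPM alone, the median log2 difference between genotypes was -0.33 over all 40 members, with 37 below 0 and 3 above, and -0.03 over all genes detected. The 7 members that passed the filter had a median of -0.90 (SD 0.67), while that of all 6424 genes tested was -0.21. Of the 7, 0 were called in either direction, against backgrounds of 2.93% lower and 1.12% higher. The median of the members that passed was 0.10 among cells with 2000 to 4000 genes and -0.25 without the wild type plate set 3, which holds 4 of the 6 cells with 20 or more members in this class. On the rescaled values it was -0.79, and Gins2 and Tubb5 changed sign among the 7.

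Tuft-gate and epithelial-gate cells shared the first plate of each plate set and were compared there. The share with 10 or more members was lower in tuft-gate cells on 6 of 7 first plates, with a mean difference of -13.2 points (SD 13.9). Tuft-gate cells had 5.13%, 4.26%, 8.00%, 9.09%, 5.56%, 11.3% and 4.35% in plate sets 1 to 7, against 16.7%, 26.3%, 38.5%, 33.3%, 14.3%, 0% and 11.1% of the epithelial-gate cells. These epithelial shares rest on 6 to 20 cells a plate. Plate set 6 turned the other way, where 0 of 20 epithelial-gate cells reached 10 members. Over all first plates the share was 22 tuft-gate cells, or 7.31% (4.64% to 10.9%), and 17 of 90 epithelial-gate cells, or 18.9% (11.4% to 28.5%), with medians of 2402 and 3331.5 genes above 0. In the epithelial gate, 24.4% of the 90 cells also had Trpm5 above 0, and these were 14 of 20 cells in plate set 6, 12 of them at 50 TPM or more, and 8 of 70 in the others. Without plate set 6 the mean difference was -17.3 points.

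By level, the median log2 difference over all 40 members was -0.51, with 36 below 0 and 4 above, and it was 0 over all genes detected. The 17 members that passed the filter, 9 of them with the lower gate under 2 TPM, had a median of -1.01 (SD 1.28), while that of all 7249 genes tested was -0.26. Of the 17, 0 were called, against backgrounds of 1.28% lower and 0.731% higher. Mcm7 averaged 2.20, 0.23, 5.39, 5.23, 1.71, 5.89 and 0.54 TPM in tuft-gate cells of plate sets 1 to 7, against 27.7, 7.35, 11.6, 15.5, 7.73, 0.19 and 2.22 TPM in epithelial-gate cells (-1.22), lower in every plate set but 6. Cdt1, which loads the helicase onto origins, was lower in 6 of 7 plate sets as well (-1.15). Cenpa was higher in tuft-gate cells in 5 of 7 (0.82). On the rescaled values the member median was -0.53 and that of all genes 0.43. Birc5, Ccna2, Dut and Tubb5 changed sign among the 17. Gins2, 1 of 38 members tested on that scale, met the rule as higher in the tuft gate. The share of all genes that met it there was not taken. Without plate set 6 the deposited values gave a member median of -1.45.

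A further list of 72 cell cycle genes outside the members, of which 71 were in the table, gave these calls. Between genotypes, 25 were tested and 1 was called, Cdk6, a kinase partner of D-type cyclins, at 2.46 TPM on average in conditional knockout and 10.7 TPM in wild type cells (log2 difference -1.90), against 2.26% of all genes called lower. Between the intermediate class and the class of at least 50 TPM, 24 were tested, of which 4 were called higher, against 3.47% of all genes, and 1 lower, against 21.9%. Ccnd2, a D-type cyclin, was called higher, with 39.3 against 2.70 TPM (2.47), as were Ccnd1, another such cyclin, with 3.53 against 0.83 TPM (1.31), Cdk4, with 27.8 against 10.0 TPM (1.27), and Ran, a GTPase of nuclear transport and spindle assembly, with 12.7 against 5.86 TPM (1.01). Cdk2, the cyclin E partner, was called lower, with 1.95 against 6.41 TPM (-1.43). In this contrast and the next, Cdk2 passed the level filter through the class of at least 50 TPM alone. Ccnd1 passed it through the intermediate class alone. Between the class of at least 50 TPM and the class at 0, 28 were tested. Cdk2 was called higher, with 5.72 against 0.82 TPM (1.90), and Ccnd2 lower, with 2.35 against 18.2 TPM (-2.45), or 1 of 28 each, against 7.19% of all genes higher and 11.4% lower. Slbp was called lower in tuft-gate than in epithelial-gate cells, with 3.33 against 9.99 TPM (-1.25), 1 of 30 tested, against 1.28% of all genes.

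The genes outside the members whose level went most closely with the count of members were sought among 8393 genes above 0 in at least 10% of tuft-gate cells, by the median over the 7 plate sets of the Spearman coefficient within each. The 12 highest with a gene name were Ppia, Hspa8, Rps3a1, Eef1a1, Rpl4, Npm1, Ptma, Rpsa, Rps2, Rpl13, Hnrnpf and Rpl3, with coefficients of 0.53 to 0.59, while the median over all ranked genes was 0.17. Ribosomal protein genes, a translation elongation factor and protein chaperones make up most of them. Npm1, a nucleolar protein of ribosome assembly, was above 0 in 84.1% of tuft-gate cells with 10 or more members, against 29.1% of the others, and Ppia, a prolyl isomerase, in 97.1% against 63.3%. None of the 12 is on the list of other cell cycle genes. Both the count of members and these genes depend on how many genes a cell yielded, and the part of that was not tested.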

How the data were processed

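Smart-seq2 libraries, which copy polyadenylated RNA, were made from each sorted cell, per the labels' protocols. The deposited values are TPM for 46517 mouse genes, beside 92 spike-in entries that are all at 0. Bowtie2 2.4.2, RSEM 1.3.3 and mm10 appear in the submitters' processing notes, without settings; read depth, annotation and strand handling are not known here. RSEM divides reads between similar transcripts by a model. A plate of 38 wells in plate set 7 holds at most 6 genes above 0 in any well and gave no kept cell. Among kept cells, 0 pairs of columns were identical.

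A cell was kept from 1000 genes above 0. Members and gene lists were chosen with earlier results of these data known. Mean TPM was taken over the cells of each plate set with at least 5 cells, plate sets had equal weight, and differences are on the log2(mean TPM + 1) scale, which understates those of low genes. Groups come from the labels, and plate sets from the well titles. Genes named with values per plate set are the 6 most abundant members of each role, the microtubule members and every called member; others were named after their values were seen. Scripts used Python 3.11.15, numpy 2.4.6, pandas 2.3.3 and scipy 1.17.1 and were tested on simulated data. Alternatives covered the cell filter, member threshold, pseudocount, gene filter, scaling, weighting, Trpm5 boundary and leaving out each plate set. The rescaled values leave out Rn18s-rs5, mitochondrial genes and the 20 most abundant genes, 58 genes with 89.1% of TPM. Intervals are exact binomial 95% intervals.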

Additional observations from a re-analysis of the deposited data

Results flagged for a closer look

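Among 7 first plates, the median log2 difference of the members between tuft-gate and epithelial-gate cells was 1.74 in plate set 6, far from the other 6, which lay between -2.09 and -0.50. In that plate set the median number of genes above 0 was 3207 in tuft-gate cells and 1935 in epithelial-gate cells. Trpm5 was above 0 in 14 of its 20 epithelial-gate cells, against 8 of 70 in the other plate sets. The part of either in the result was not tested. Of 24 groups of values searched for an outlying plate set, 1 was found. Chance gives about 1 in 20 by the nominal rate of the rule, which was not measured here. Among the wells under 1000 genes, which no comparison used, 2 had 10 or more members above 0, the highest with 11, while the median of these wells was 0 members.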

How the results depend on the processing

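Of the values recomputed under alternatives, 51 moved beyond the plate-set spread or by over 1.5 times and 2 changed sign; the others did not, and the causes were not tested. The sign changes were both in cells with 2000 to 4000 genes, where the median conditional knockout over wild type difference was 0.031 in the tuft gate and 0.10 at Trpm5 of 50 TPM or more, the genotype difference in share was -0.80 points and 25.9% of replication-high cells were mitosis-high. At Trpm5 of 50 TPM or more that median was -0.20 with a pseudocount of 10, -0.19 with means of logs, -0.23 on first plates and -0.19 with the Trpm5 boundary at 100. The share at 50 TPM or more minus that at 0 was -15.2 points from 2000 genes. The share in the intermediate class minus that at 50 TPM or more was 5.27 points where a member counted from 10 TPM, 45.1 for 5 members and 7.62 for 15. Counts of called members were the least stable. The share of all genes called was not taken under these alternatives, so the counts that follow have no background beside them. Between genotypes 0 members were called from 2000 genes, with 2000 to 4000 genes, with a pseudocount of 10, a filter of 10 TPM, means of logs or first plates only, 2 from 500 genes, 4 rescaled, and 0 to 2 without each plate set. At 50 TPM or more against 0, called lower were 4 from 2000 genes, 1 from 500, 0 with a pseudocount of 10, a filter of 10 TPM, means of logs, rescaling or a Trpm5 boundary of 20, and 0 to 3 without each plate set. In the intermediate class, called higher were 5 from 2000 genes or with a filter of 0.5 TPM or none, 0 with a pseudocount or filter of 10, 9 rescaled, 7 with a boundary of 100, and 2 to 6 without each plate set. Other cell cycle genes called between genotypes were 2 with 2000 to 4000 genes or a filter of 0.5 TPM or none, 0 with a filter of 10 or means of logs, 7 rescaled, and 1 to 4 without each plate set. No paired analysis was possible because the genotypes share no plate set; Trpm5 classes and gates were compared within plate sets throughout. Depth is unknown for TPM, which limits what a value of 0 shows; 18 mitosis-only cells and 6 to 20 epithelial-gate cells a plate limit those shares.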
